A study of Mus musculus with 12 samples.

Results

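The genes described here are 10 interferon-stimulated genes whose products act against viruses: Rsad2, Cmpk2, Ifit1, Ifit2, Ifit3, Isg15, Oasl1, Oasl2, Mx1 and Usp18. They were chosen by name, with earlier results of these data known, and all 10 were among the 24552 gene symbols of the count table. Polyadenylated RNA was sequenced from macrophages differentiated in culture from mouse bone marrow. Every group grew for 6 days with 10 ng/ml M-CSF and received DMSO (the vehicle) or 50 nM ISRIB during a 1 h pre-treatment. ISRIB is a small molecule that blocks the integrated stress response, in which phosphorylation of eIF2 lowers protein synthesis. The M1 groups then received LPS at 10 ng/ml and IFN-γ at 25 ng/ml for 16 h with vehicle or ISRIB still present, and the labels do not spell out what the M0 groups received at that step. M0 and M1, each with vehicle or ISRIB, made 4 groups of 3 biological replicates. No mouse strain, age or genotype is given in the labels, nor whether replicates came from separate animals, so p-values measure the spread between these samples.

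Interferon-stimulated genes are switched on when type I interferon binds its receptor and the kinases at the receptor activate transcription factors that bind the interferon-stimulated response element (ISRE) in promoters. IFN-γ acts mainly through another promoter element, GAS. In macrophages LPS induces type I interferon through TLR4, TRIF and IRF3, so LPS and IFN-γ together engage both routes.

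The promoter sequences of 8 of the 10 genes were at hand from RefSeq (build GRCm38.p6), in windows of 300 bases that run from 250 bases before to 50 bases after an annotated start. An ISRE-like motif, GAAA followed by any 2 bases and GAAA again, was searched on both strands and found in 4 of these 8 genes, against 3.99% of the 27025 genes with a window. The stretches that hold it are shown because their letters resemble the ISRE. Capitals mark the matches, which read TTTC, any 2 bases and TTTC where the motif lies on the other strand, and every stretch ends upstream of the start.
Rsad2, chr12:26456533-26456602, minus strand: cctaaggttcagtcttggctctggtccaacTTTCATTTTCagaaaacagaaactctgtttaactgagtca
Ifit1, chr19:34640755-34640843, plus strand: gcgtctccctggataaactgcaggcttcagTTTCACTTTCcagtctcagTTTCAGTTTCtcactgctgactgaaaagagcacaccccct
Ifit3, chr19:34583343-34583446, plus strand: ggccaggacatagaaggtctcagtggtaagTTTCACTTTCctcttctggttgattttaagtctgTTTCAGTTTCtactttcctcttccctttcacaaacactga
Isg15, chr4:156200845-156200926, minus strand: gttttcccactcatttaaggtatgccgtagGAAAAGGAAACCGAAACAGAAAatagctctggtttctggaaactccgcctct
Rsad2 held 1 match, Ifit1 and Ifit3 held 2 each, and Isg15 held 3 that overlap one another. In these genes the matches began between 156 and 66 bases upstream of the start. The windows of Cmpk2, Ifit2 (2 starts), Oasl1 and Oasl2 held none of these letters in this arrangement. A GAS-like motif, TTCNNNGAA, which reads the same on both strands, was found in 1 of the 8 genes, Ifit2, against 9.55% of all genes. A match describes letters and is not evidence of binding.

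**Figure D1:**
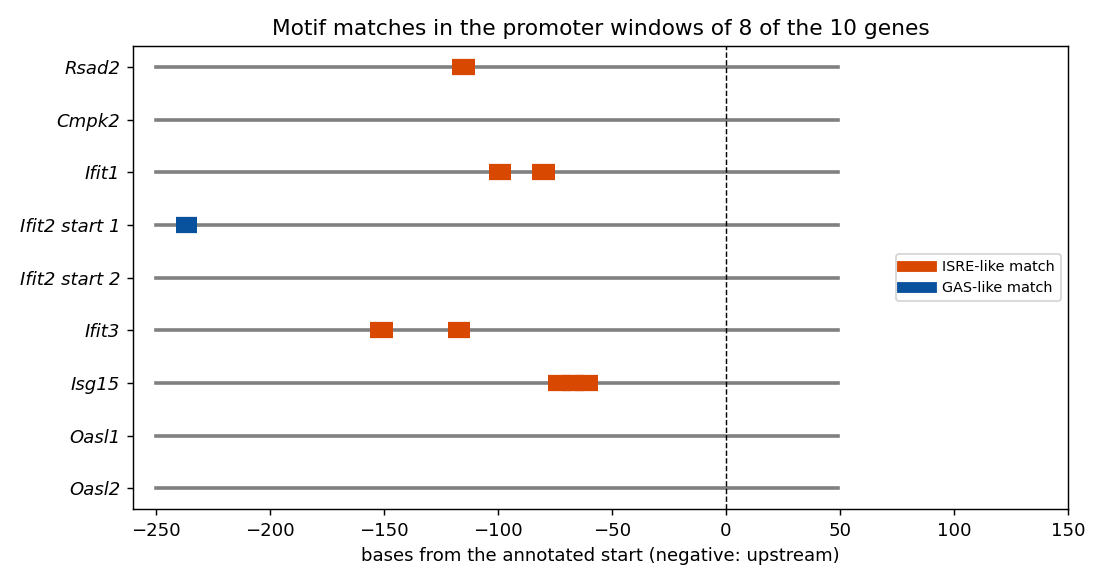
Positions of ISRE-like (orange) and GAS-like (blue) matches in the promoter windows of 8 genes, with bases from the annotated start on the x axis and a row per annotated start. The ISRE-like matches of Rsad2, Ifit1, Ifit3 and Isg15 lie between 156 and 57 bases upstream of the start.

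In the annotation (GENCODE release M21 on mm10) Rsad2 (chr12:26442746-26456452, minus strand) and Cmpk2 (chr12:26469204-26479837, plus strand) are neighbours on opposite strands with starts 12.8 kb apart. Ifit2 (chr19:34550694-34576419), Ifit3 (chr19:34583531-34588731) and Ifit1 (chr19:34640871-34650009) lie on the plus strand within 99.3 kb. Oasl2 (chr5:114896936-114912234) and Oasl1 (chr5:114923240-114937915) lie on the plus strand with 11 kb between them. Isg15 is at chr4:156199424-156200818 and Mx1 at chr16:97447035-97462907, both on the minus strand, and Usp18 is at chr6:121245906-121270917 on the plus strand. GENCODE types all 10 as protein-coding, and RefSeq types Mx1 as a transcribed pseudogene in this genome. Many laboratory strains are known to carry a defective Mx1.

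Total counts per library ran from 439976 to 514037, and a single count corresponded to 1.79 to 2.57 CPM, the count scaled to library size after TMM normalization. Floors and intervals on counts cover counting error only. Symbols with an exon that overlaps an exon on the other strand were 24.1% of those matched to the annotation and held 92.3% of the counts. Of the 10 antiviral genes, 8 had no such overlap, Oasl1 overlapped Gm13822 by 38 bases and Usp18 overlapped Gm44148 by 124 bases. The libraries were strand-specific and the strand setting used for counting is not given in the sources used here, so it is not known from which strand a symbol's counts came. Values are therefore given as what the table lists under each symbol. The macrophage markers Adgre1, Csf1r, Cd68, Itgam, Fcgr1, Mertk, Lyz2, Aif1 and Cd14 were detected in every group, with summed counts of 118 to 463 per library. Their summed level was 443.0 to 828.5 CPM in M0 and 303.3 to 634.6 CPM in M1. Fcgr1, Mertk and Aif1 were at 0 in their lowest library. All 5 T or NK cell markers in the table and all 5 stromal markers were at 0 in the 12 libraries, 8 neutrophil markers summed to at most 4 counts, 4 B cell markers to at most 4 and 5 erythroid markers to at most 16, all of them Alas2. Of 6 dendritic cell markers Flt3 and Zbtb46 were at 0, and the summed level was 45.8 to 123.6 CPM in M0 against 831.7 to 1065 CPM in M1, where it was all Xcr1. In M1 this level lay above that of the macrophage markers, while Clec9a, Itgax and Siglech were at 0. Whether the Xcr1 counts come from cells that bear it, and the part of such cells in the results, was not tested.

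All 10 genes were listed with few or no counts in M0 libraries and with counts in every M1 library, with and without ISRIB. Together they had 3, 0 and 0 counts in vehicle M0 replicates 1, 2 and 3 and 8, 3 and 5 counts in ISRIB M0. In M1 they had 628, 331 and 501 counts with vehicle and 750, 748 and 635 with ISRIB. In bulk samples fewer responding cells and less RNA per cell cannot be told apart. On the CPM scale the summed level was 1209 ± 361 (SD, n = 3) in vehicle M1, with a range of 850.8 to 1573, and 1680 ± 194 in ISRIB M1, with a range of 1487 to 1875. The ranges of the M1 groups overlapped in CPM, and vehicle M1 replicate 2 was the lowest of the 6 M1 libraries. Rsad2 and Ifit2 held 73.1% of all counts of the 10 genes.

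**Figure D2:**
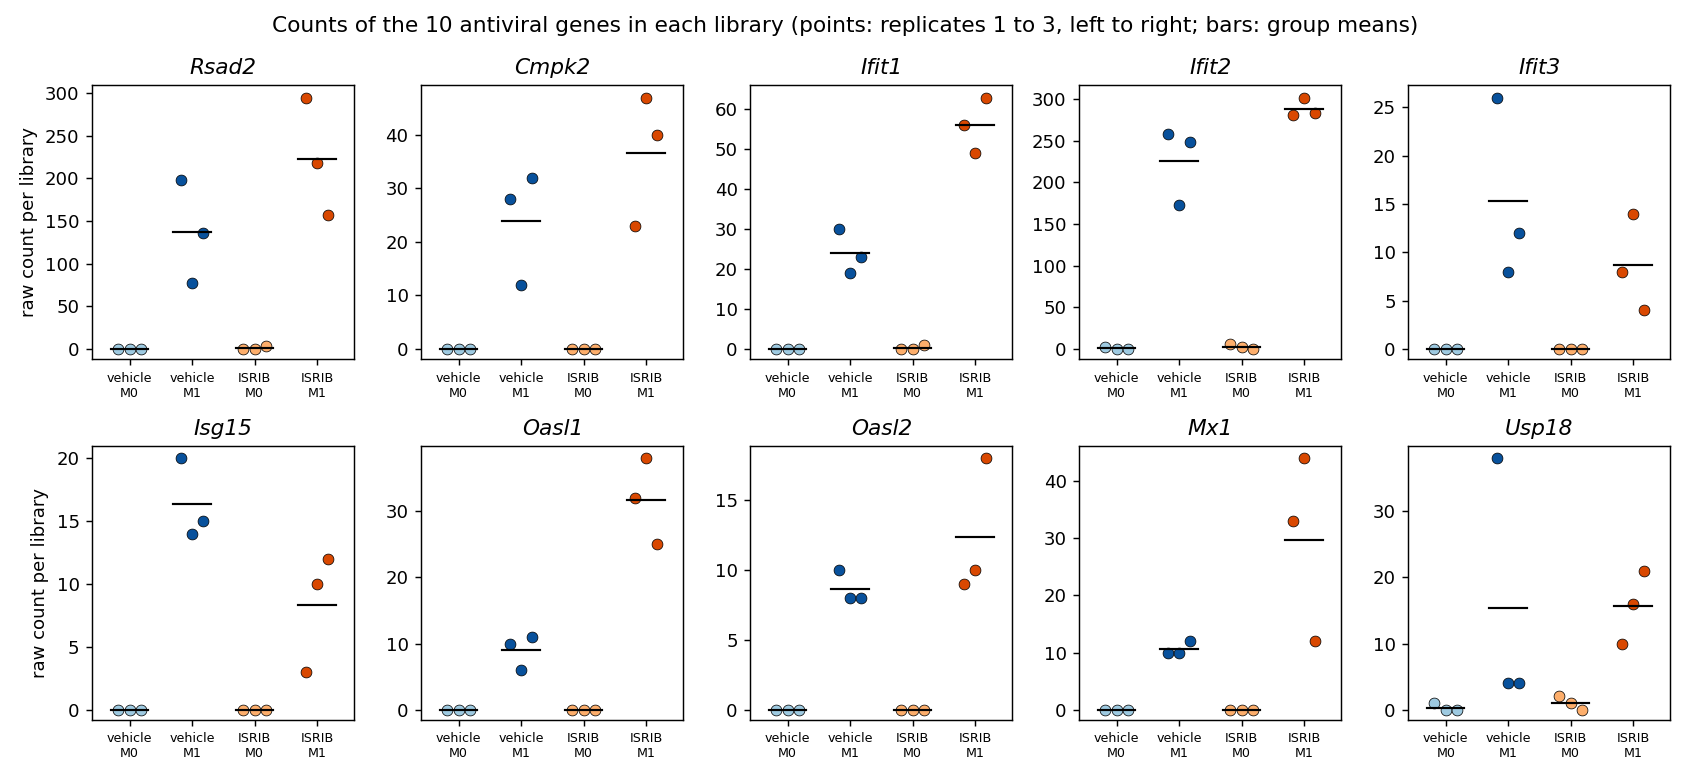
Raw counts (y axis, a scale for each gene) of the 10 genes in M0 and M1 libraries with vehicle (blue) or ISRIB (orange), with a point for each library and a bar at the group mean. M0 libraries held at most 6 counts of any gene, and M1 libraries held from 3 counts of Isg15 to 302 of Ifit2.

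For M1 against M0, edgeR's quasi-likelihood test was fitted on the 2356 genes that passed a filter on low counts, and 9 of the 10 genes passed the filter, Oasl2 being the exception. These 9 passed it only through their M1 libraries, so their number past the test gives no support of its own. In vehicle cells all 9 were higher in M1 at an adjusted p (Benjamini-Hochberg) of 0.05, where 24.3% of all tested genes were called higher. In ISRIB all 9 were again higher, where 23.9% were called higher. The adjusted p-values of the 9 (edgeR) ran from 8.31e-14 for Ifit2 to 0.00101 for Usp18 in vehicle, and from 8.47e-14 for Ifit2 to 0.00417 for Usp18 in ISRIB. Without the filter Oasl2 was also higher in M1, with adjusted p-values (edgeR, Benjamini-Hochberg over 10978 genes) of 0.00136 in vehicle and 0.000427 in ISRIB. Where an M0 group had no count, the fold is a lower bound against a floor of 3 counts over the group.

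Rsad2 and Cmpk2 act on nucleotides. Rsad2 encodes viperin, a radical SAM enzyme that turns CTP into a chain terminator for viral polymerases, and Cmpk2 encodes a mitochondrial nucleoside monophosphate kinase. Rsad2 had 0 counts in every vehicle M0 library and 198, 77 and 136 counts in vehicle M1 replicates 1, 2 and 3. In ISRIB M0 it had 0, 0 and 4 counts, and in ISRIB M1 295, 218 and 157. The highest vehicle M1 library lay above the lowest ISRIB M1 library, so the M1 groups overlapped. Rsad2 was at least 181-fold higher in M1 than in M0 in vehicle (adjusted p = 1.36e-10, edgeR). In ISRIB the ratio of totals was 205.9, with a 95% counting interval of 80.05 to 758.0 (adjusted p = 5.34e-11, edgeR). Cmpk2 was not counted in any of the 6 M0 libraries. Its M1 counts were 28, 12 and 32 with vehicle against 23, 47 and 40 with ISRIB. It was at least 31.7-fold higher in M1 in vehicle and at least 45.1-fold higher in ISRIB, and its M1 groups overlapped. Replicate 2 was the lowest vehicle M1 library for both genes.

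The IFIT proteins bind RNA and one another. Ifit1 recognises viral RNA caps that lack 2′-O methylation, Ifit2 binds AU-rich RNA and Ifit3 acts as a partner in IFIT complexes. Ifit2 had the most counts of the 10 genes, with M1 counts of 258, 173 and 248 with vehicle and 281, 302 and 283 with ISRIB. In M0 it had 2, 0 and 0 counts in vehicle and 6, 2 and 0 in ISRIB. The lowest ISRIB M1 library stood above the highest vehicle M1 library. The ratio of totals of M1 over M0 was 448.8 in vehicle, with a 95% counting interval of 123.8 to 3713, and 133.1 in ISRIB, with an interval of 67.2 to 309.2. These intervals overlap, and each rests on at most 8 counts in M0.

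Ifit1 had no count in vehicle M0 and 0, 0 and 1 in the ISRIB M0 libraries. Its M1 counts were 30, 19 and 23 with vehicle against 56, 49 and 63 with ISRIB, and the groups did not overlap. Ifit1 was at least 31.7-fold higher in M1 in vehicle, and the ratio in ISRIB was 206.5 with a 95% counting interval of 36.6 to 8206. Ifit3 went the other way between the M1 groups, with 26, 8 and 12 counts in vehicle and 8, 14 and 4 in ISRIB, and these overlapped. It was at 0 throughout M0 and was at least 20.3-fold higher in M1 in vehicle and at least 10.7-fold higher in ISRIB. Ifit3b, a near-identical copy that can share reads with Ifit3, had M1 counts of 0, 2 and 24 with vehicle and 2, 2 and 0 with ISRIB, so the split between these copies is uncertain.

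Isg15 and Usp18 form a modifier and its protease. Isg15 is a ubiquitin-like protein that is attached to other proteins and secreted, and Usp18 removes it and also blocks signalling at the interferon receptor subunit IFNAR2. Isg15 was at 0 in every M0 library and had M1 counts of 20, 14 and 15 with vehicle against 3, 10 and 12 with ISRIB. The highest ISRIB M1 library was below the lowest vehicle M1 library. It was at least 21.6-fold higher in M1 in vehicle and at least 10.2-fold higher in ISRIB, where its bound was the smallest of the 6 genes that have one. In vehicle Usp18 had 1, 0 and 0 counts in M0 and 38, 4 and 4 in M1. In ISRIB it had 2, 1 and 0 counts in M0 and 10, 16 and 21 in M1. Replicate 1 held 82.6% of its vehicle M1 counts and lay above every ISRIB M1 library, while the other 2 vehicle libraries lay below them. Its ratio of M1 over M0 totals was 60.8 in vehicle, with a 95% counting interval of 10.4 to 2453, and 19.3 in ISRIB, with an interval of 6.20 to 96.7. Without vehicle M1 replicate 1 the adjusted p for M1 against M0 in vehicle went from 0.00101 to 0.0627 (edgeR, Benjamini-Hochberg), past the threshold of 0.05.

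Oasl1 and Oasl2 belong to the oligoadenylate synthetase family, and Oasl1 is known to repress translation of Irf7 mRNA. Mx1 is a dynamin-like GTPase that restricts influenza virus where it is intact. None of the 3 had a count in any of the 6 M0 libraries. Oasl1 had M1 counts of 10, 6 and 11 with vehicle and 32, 38 and 25 with ISRIB, with no overlap. Mx1 had M1 counts of 10, 10 and 12 with vehicle and 33, 44 and 12 with ISRIB, so that ISRIB M1 replicate 3 lay at the vehicle level. Oasl2 had M1 counts of 10, 8 and 8 with vehicle and 9, 10 and 18 with ISRIB, which overlapped. Oasl1 was at least 11.9-fold higher in M1 in vehicle and at least 38.9-fold higher in ISRIB. For Mx1 the bounds were at least 14.1-fold higher in vehicle and at least 36.5-fold in ISRIB, and for Oasl2 at least 11.5-fold and 15.2-fold.

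**Figure D3:**
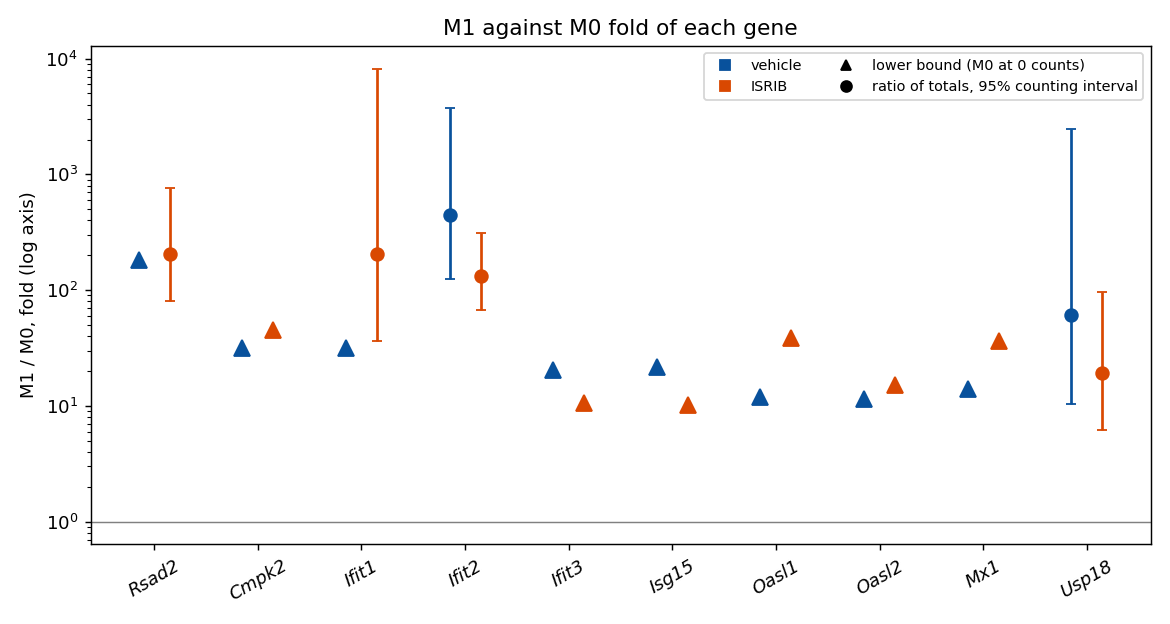
Fold of M1 over M0 (log axis) of each gene in vehicle (blue) and ISRIB (orange), as a lower bound where M0 had 0 counts (triangles) or as a ratio of totals with its 95% counting interval (circles). The bounds run from at least 10.2-fold for Isg15 in ISRIB to at least 181-fold for Rsad2 in vehicle.

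Per kilobase of annotated exon the order of levels in vehicle M1 was Ifit2, Rsad2, Isg15, Ifit1, Ifit3, Cmpk2, Usp18, Oasl1, Mx1 and Oasl2. Such an order takes the counts as reads of each gene's own exons, which is not known here, and its lower ranks rest on few counts. The mean level fell along this order from 143.2 ± 26.7 CPM per kb (SD, n = 3) for Ifit2 to 3.39 ± 0.48 for Oasl2. Ifit2 lay above every other gene in its lowest library, with 113.2 CPM per kb, except that the highest Rsad2 library had 114.4. Rsad2 and Isg15 overlapped, and so did each neighbour in the order from Ifit1 down to Mx1, while Isg15 lay above Ifit1 and Mx1 above Oasl2 in every library. In ISRIB M1 the order was Ifit2 at 173.4 ± 5.10 CPM per kb, Rsad2, Ifit1, Oasl1, Isg15, Cmpk2, Mx1, Usp18, Ifit3 and Oasl2 at 4.55 ± 1.78. Here Rsad2 lay above Ifit1 and Ifit1 above Oasl1 in every library, and all other neighbours overlapped. Oasl1, Mx1 and Ifit1 stood higher in the order than in vehicle, and Isg15, Ifit3 and Usp18 lower.

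A further question was whether induction differed with ISRIB. The interaction, which compares the M1 over M0 fold with and without ISRIB, could be estimated for 4 of the 10 genes, since Cmpk2, Ifit3, Isg15, Oasl1, Oasl2 and Mx1 had no count in M0. None of the 4 passed, with 0% of all tested genes called in either direction. Under edgeR's test 0 of the 4 had an unadjusted p under 0.05, against 7.09% of all tested genes. On the log2 scale the difference in induction was -2.76 for Rsad2 (95% interval -6.47 to 0.94) and -1.55 for Ifit2 (-3.67 to 0.57). It was -1.36 for Usp18 (-4.99 to 2.26) and -0.62 for Ifit1, for which no interval is given. The adjusted p-values of these 4 (edgeR, Benjamini-Hochberg) ran from 0.777 to 0.958. The M0 side of each rests on at most 8 counts per group, and for Rsad2 and Ifit1 on 4 counts and 1 count in ISRIB M0 replicate 3 alone, with vehicle M0 at 0. The fitted values of Rsad2 and Ifit1, and the interval of Rsad2, therefore depend on the prior count of the model. For Ifit1 the implied SE of 0.67 was below those of the inductions it compares, 0.95 in vehicle and 0.76 in ISRIB. An interval from it would be too narrow. The difference for Rsad2 shrank to -0.42 with limma-voom and -0.03 with limma on the deposited values. That for Ifit2 shrank to -0.63 with limma on the deposited values and -0.21 without ISRIB M0 replicate 1, and was -4.05 without vehicle M0 replicate 1. The intervals of Rsad2, Ifit2 and Usp18 include 0 and are wide, so neither equal nor unequal induction is shown. The same holds for Ifit1, whose M0 side rests on 1 count.

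For the other 6 genes the comparison that carries information is ISRIB M1 against vehicle M1. Here 0 of the 9 tested genes passed in edgeR's quasi-likelihood test, where 0% of all tested genes were called, and 0 passed with the DESeq2 Wald test, limma-voom or limma on the deposited values. Oasl1 and Ifit1 had the largest differences beside their error. Oasl1, like Mx1 and Usp18, failed the filter among the vehicle groups alone and passed it among the ISRIB groups alone, while Isg15 did the reverse. Oasl1 was therefore tested through ISRIB M1 and Isg15 through vehicle M1, each where it is high, so these differences give no support of their own. The difference of Mx1 is read with the same limit, since Mx1 failed among the vehicle groups alone. Oasl1 was at 22.3 ± 6.00 CPM (SD, n = 3) in vehicle M1 and 74.6 ± 14.2 in ISRIB M1. Its log2 fold change was 1.73 ± 0.67 (SE), with a 95% interval of 0.34 to 3.12. Ifit1 was 59.8 ± 13.7 CPM in vehicle M1 and 132.5 ± 19.9 in ISRIB M1, and its log2 fold change of 1.14 ± 0.46 had an interval of 0.20 to 2.09. Their unadjusted p-values in edgeR's model across all genes were 0.0171 and 0.0195, and both became 0.806 when adjusted by Benjamini-Hochberg. These 2 of 9 had an unadjusted p under 0.05 with a higher level in ISRIB, as had 2.72% of all tested genes. With a lower level 0 of 9 had one, as had 2.97%. Since Oasl1 is 1 of the 2, this count gives no support of its own.

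Rsad2 had 340.2 ± 149.4 CPM (SD, n = 3) in vehicle M1 and 531.5 ± 188.4 in ISRIB M1. The log2 fold change was 0.64 ± 0.31, with a 95% interval of -0.01 to 1.29. For Rsad2 the change was 0.37 without vehicle M1 replicate 2, 0.33 without ISRIB M1 replicate 1 and 1.01 without vehicle M1 replicate 1. Without vehicle M1 replicate 2 it was 0.22 for Cmpk2 and 0.13 for Ifit2. Mx1 had 26.5 ± 2.03 CPM in vehicle M1 and 69.8 ± 37.0 in ISRIB M1. Its log2 fold change was 1.39 ± 0.69, with an interval of -0.05 to 2.82. Ifit2 differed least among the genes with a higher mean in ISRIB, at 562.3 ± 104.9 CPM against 681.0 ± 20.02, and its log2 fold change of 0.28 ± 0.23 had an interval of -0.21 to 0.76. Cmpk2 had a log2 fold change of 0.53 ± 0.54, with an interval of -0.60 to 1.65.

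Isg15 and Ifit3 had lower means with ISRIB. Isg15 was 40.7 ± 8.12 CPM (SD, n = 3) in vehicle M1 and 19.3 ± 10.6 in ISRIB M1. Its log2 fold change was -1.06 ± 0.87, with a 95% interval of -2.86 to 0.74. Ifit3 was 38.2 ± 23.7 CPM and 20.3 ± 11.03, and its log2 fold change of -0.90 ± 0.89 had an interval of -2.76 to 0.95. Without vehicle M1 replicate 1 it was -0.29. Usp18 was 38.4 ± 49.2 CPM and 36.7 ± 12.1, and its log2 fold change of -0.06 ± 0.85 had an interval of -1.82 to 1.70. Without vehicle M1 replicate 1 that change was 1.85. Oasl2, below the filter, had 21.6 ± 3.05 CPM and 29.03 ± 11.4, and a log2 fold change of 0.45 ± 0.99, with an interval of -1.50 to 2.39, when no filter was applied. These intervals include changes in either direction.

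**Figure D4:**
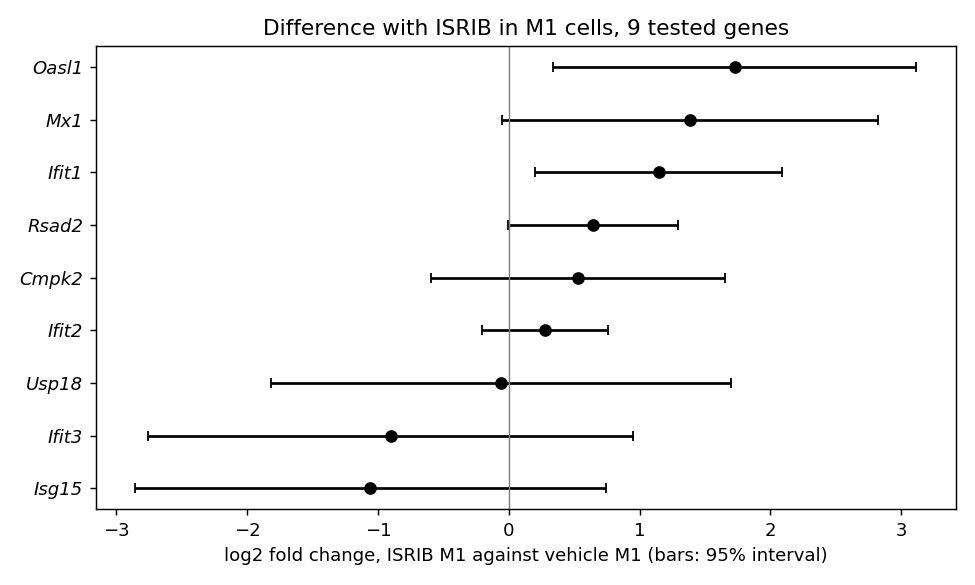
Log2 fold change of ISRIB M1 against vehicle M1 (x axis) of the 9 tested genes, with 95% intervals from edgeR's model. The intervals of Oasl1 and Ifit1 lie above 0 before adjustment over all genes, and those of the other 7 include 0.

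Over the 9 tested genes 6 had a higher and 3 a lower mean in ISRIB M1. The median log2 fold change was 0.53, beside -0.00 over all 2356 genes. Oasl1 was tested through ISRIB M1 and Isg15 through vehicle M1, where each is high, and Mx1 failed the filter among the vehicle groups alone. The tally, the median and the shares given below therefore give no support of their own. The 9 genes come from the same libraries and are not replicates, and no test was run over them as a set. The changes of Rsad2, Cmpk2 and Ifit2 shrank without vehicle M1 replicate 2, as given above. Of all 10 genes, Ifit1, Ifit2 and Oasl1 had every ISRIB M1 library above every vehicle M1 library in CPM, as had 5.39% of all tested genes. Isg15 alone of the 10 had every ISRIB M1 library below, as had 6.2% of all tested genes.

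In M0 cells ISRIB against vehicle could be estimated for Rsad2, Ifit1, Ifit2 and Usp18, each with more counts in ISRIB M0 than in vehicle M0. None passed in edgeR's test, with 0% of all tested genes called, a lowest adjusted p of 0.867 (Benjamini-Hochberg) and 0 of 4 at an unadjusted p under 0.05, against 6.07% of all tested genes. These differences rest on 3 counts in vehicle M0 and 16 in ISRIB M0 over all 10 genes and 6 libraries, and are not detectable at this depth for single genes.

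The other genes of the interferon pathway were taken from a list of 105 in 5 classes, all in the table, of which 38 passed the filter and 14 of those had an opposite-strand exon overlap. Some of these, such as Ifih1 and Socs3, passed the filter through their M1 libraries alone. In vehicle M1 against M0 26 of the 38 were higher, 1 lower and 11 did not pass, and in ISRIB 26 were higher, 2 lower and 10 did not pass. Over all tested genes 24.3% were called higher and 20.5% lower in vehicle, and 23.9% and 20.9% in ISRIB. The median log2 fold change of the 38 was 3.19 in vehicle and 2.98 in ISRIB, beside 0.01 and -0.01 over all tested genes. In ISRIB M1 against vehicle M1 0 of 38 passed in edgeR's test and the median was 0.02. In ISRIB M0 against vehicle M0 and in the interaction 0 of 38 passed as well.

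Among receptors and ligands 1 of 7 was tested, the receptor chain Ifnar2, at 16.3 ± 1.54 CPM (SD, n = 3) in vehicle M0 and 14.7 ± 9.45 in vehicle M1, where it did not pass. Of the 15 signalling genes 5 were tested, 4 of them higher in vehicle M1 and 3 in ISRIB M1, where 24.3% and 23.9% of all tested genes were called higher. Stat2, a transcription factor of type I interferon signalling, rose from 1.19 ± 2.07 to 53.8 ± 8.18 CPM (SD, n = 3) in vehicle. Irf7, the factor that amplifies type I interferon, rose from 4.22 ± 4.496 to 118.5 ± 48.7 CPM in vehicle and from 3.05 ± 3.78 to 118.2 ± 12.7 in ISRIB, and its exons overlap Phrf1 on the opposite strand. Irf5, which overlaps Tnpo3, had a log2 fold change of 0.32 ± 0.12 in vehicle (adjusted p = 0.0318, edgeR) and 0.27 ± 0.12 in ISRIB (adjusted p = 0.0710, edgeR).

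Of the 17 sensors of nucleic acid and microbes 4 were tested, 3 of them higher in vehicle M1 (24.3% of all tested genes) and 2 in ISRIB M1 (23.9% of all tested genes). Ifi204, a DNA-binding protein of the Ifi200 family, rose from 1.19 ± 2.07 to 64.5 ± 27.2 CPM (SD, n = 3) in vehicle. Ifih1, which encodes the RNA sensor MDA5, was at 0 in every M0 library and had M1 counts of 12, 6 and 10 with vehicle and 6, 25 and 10 with ISRIB. Aim2, a DNA sensor of inflammasomes, rose in vehicle with an adjusted p of 0.00467 (edgeR) and had one of 0.125 in ISRIB. ISRIB M0 replicate 1 had 13 counts of Aim2, and its interaction did not pass (adjusted p = 0.789, edgeR). Mb21d1, which encodes the DNA sensor cGAS and overlaps Gm8093, had a log2 fold change of 0.73 ± 0.38 in vehicle and did not pass.

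Of the 54 other antiviral effectors 24 were tested, 17 of them higher and 1 lower in vehicle M1, and 18 higher and 2 lower in ISRIB M1. The shares of all tested genes were 24.3% higher and 20.5% lower in vehicle, and 23.9% and 20.9% in ISRIB. Parp9 and Dtx3l, partners in an ADP-ribosylating and ubiquitin ligase complex, overlap each other on opposite strands. Counts of Parp9 rose from 465.3 ± 49.03 to 2734 ± 201 CPM (SD, n = 3) in vehicle and those of Dtx3l from 53.8 ± 12.2 to 491.6 ± 69.1. Sp110, a nuclear body protein, overlaps G530012D18Rik and rose from 50.8 ± 13.9 to 1734 ± 255 CPM. Ifi27l2a, an interferon-inducible gene of the Ifi27 family, went the other way, from 727.4 ± 93.2 CPM in vehicle M0 to 34.01 ± 1.82 in vehicle M1. This is a log2 fold change of -4.41 ± 0.25. In ISRIB it fell from 656.8 ± 125.4 to 53.0 ± 17.4 CPM. The other gene that fell in ISRIB, named here after its values were seen, was Ifi35, which overlaps Gm11626, with 27, 20 and 24 counts in ISRIB M0 and 0, 2 and 4 in ISRIB M1. Its log2 fold change was -3.22 ± 0.92 in ISRIB (adjusted p = 0.00582, edgeR) and -0.87 ± 0.80 in vehicle (adjusted p = 0.402, edgeR), and its interaction did not pass (adjusted p = 0.706, edgeR).

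Of the 12 negative regulators 4 were tested, with 2 higher in vehicle M1, 3 in ISRIB M1 and 0 lower in either. Of all tested genes 24.3% were higher and 20.5% lower with vehicle, against 23.9% and 20.9% with ISRIB. Socs3, an inhibitor of cytokine receptor signalling, was at 0 in every M0 library and had M1 counts of 8, 11 and 6 with vehicle and 2, 14 and 11 with ISRIB. Usp25, a deubiquitinase, was at 1.24 ± 2.14 CPM (SD, n = 3) in vehicle M0 and 26.6 ± 3.11 in vehicle M1. The phosphatase gene Ptpn6, which overlaps Gm20531, had an adjusted p of 0.0319 (edgeR) in ISRIB and 0.106 in vehicle, and its interaction did not pass (adjusted p = 0.967, edgeR). The exonuclease gene Trex1 had log2 fold changes of -0.91 ± 0.63 and -1.16 ± 0.63 that did not pass.

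The summed level of the 54 other effectors was set beside that of the 10 genes. It was 1582 ± 108 CPM (SD, n = 3) in vehicle M0, 1704 ± 118 in ISRIB M0, 6694 ± 695 in vehicle M1 and 6849 ± 213 in ISRIB M1. A few genes carried this sum. Parp9 and Sp110, which both overlap a gene on the opposite strand, held 66.7% of it in vehicle M1, and Parp9 and Ifi27l2a held 75.4% in vehicle M0. Without these 3 genes the sum was 338.7 CPM in vehicle M0, 409.2 in ISRIB M0, 2193 in vehicle M1 and 2227 in ISRIB M1. Vehicle M1 replicate 2 was the lowest of the 6 M1 libraries here too, at 5955 CPM against 6663 to 7335 in the others. The M1 means with and without ISRIB were closer for these effectors than for the 10 genes, a difference that was not tested.

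**Figure D5:**
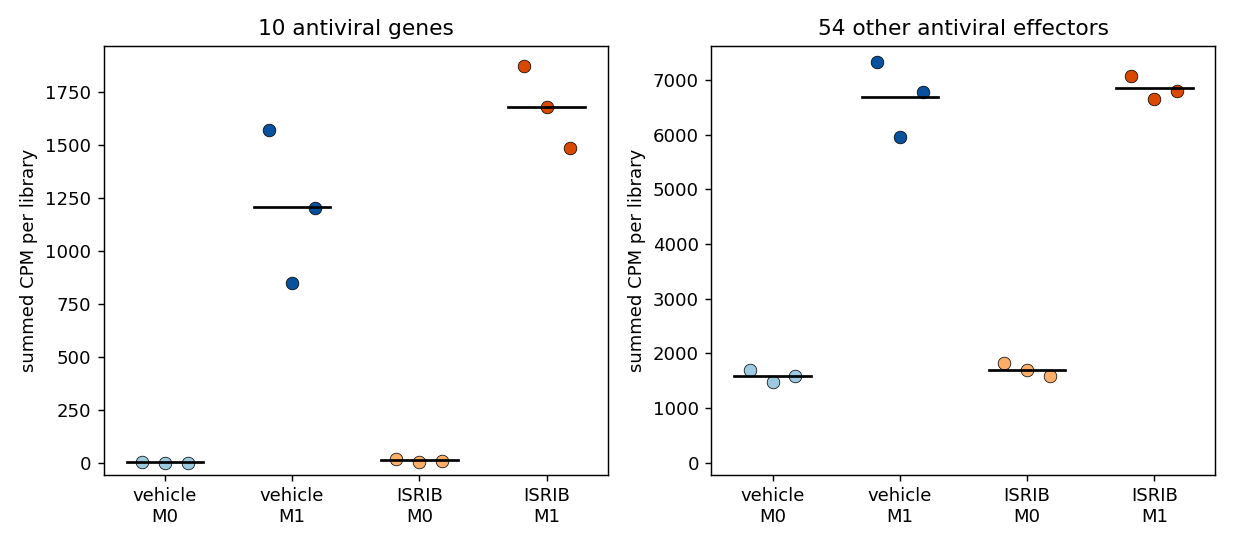
Summed CPM per library (y axes start near 0) of the 10 antiviral genes (left) and of the 54 other antiviral effectors (right), with a point for each library and a bar at the group mean. Vehicle M1 replicate 2 is the lowest M1 library in both panels, at 850.8 and 5955 CPM.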

How the data were processed

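RNA was sequenced in 12 macrophage samples in 4 groups of 3, and groups and replicate numbers came from the sample titles. The authors deposited whole-number counts per symbol and a table of log2 values. Compared value by value, the deposited log2 numbers equal the log2 of 1 plus the count divided by a factor for its library. FastQC, HTSeq, DESeq2 and mm10 are named in the submitters' processing notes, per the labels, and the aligner and strand setting are not given in the sources used here.

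The counts went into edgeR 4.0.16 under R 4.3.3. There filterByExpr (minimum count 10, total 15) left 2356 of 24552 symbols with 97.6% of the counts, libraries were scaled by TMM, and a mean per group was fitted to all 12 samples with glmQLFit and glmQLFTest for 5 contrasts. P-values were adjusted by Benjamini-Hochberg over all 2356 genes at 0.05. Standard errors and intervals are those implied by the test statistic, and where an M0 group had no counts they depend on the prior count. Ratios of totals use effective library sizes and exact binomial 95% intervals. The code was tested on simulated data. Alternatives used DESeq2 1.42.0 and limma 3.58.1. Named genes are the 10 antiviral genes and, in each pathway class, the 4 tested genes with the highest mean count, plus any past the threshold in an ISRIB contrast, of which there were 0. The values of 1 gene named by this rule are not reported here. The genes and lists were chosen with earlier results of these data known. Same-numbered samples were checked for pairing.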

Additional observations from a re-analysis of the deposited data

How the results depend on the processing

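The alternatives were 2 other scalings (upper quartile and DESeq2 size factors), 3 other tests (limma-voom, limma on the authors' log2 table and DESeq2's Wald test), the replicate block, 3 other choices of genes or groups (no filter, a mean of at least 50 counts, the compared groups alone), and each sample left out in turn. Of the 10 genes, 9 were called in M1 against M0 in vehicle and 9 in ISRIB. With a minimum mean of 50 counts 2 were called in each, since only Rsad2 and Ifit2 were then tested, and with only the compared groups 5 were called in vehicle, since Ifit3, Oasl1, Mx1 and Usp18 then failed the filter. Leaving out each sample gave 8 to 10 in vehicle, the lowest without vehicle M1 replicate 1, and 9 to 10 in ISRIB. In the ISRIB contrasts and the interaction 0 of the 10 were called under every one of these alternatives that gave a value.

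Usp18 in ISRIB M1 against vehicle M1 changed sign, from -0.06 to 0.69 with limma-voom, 0.63 with limma on deposited values and 0.78 with the replicate block, and its leave-one-out values ran from -0.52 to 1.85. The interaction of Ifit1 changed sign from -0.62 to 0.17 with the DESeq2 Wald test, 0.58 with limma-voom and 0.84 with limma on deposited values. The interaction of Usp18 changed from -1.36 to 0.12 with limma on deposited values, and its leave-one-out values ran from -3.10 to 0.54. The interactions of Rsad2 and Ifit2 stayed negative but ran from -3.32 to -0.03 and from -4.05 to -0.21 over the alternatives. The cause was not tested.

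Same-numbered samples had deviations from their group means that correlated at -0.0452 to 0.0975 over the tested genes, none of 12 pairs above 0.1. In 8 of 12 comparisons a sample correlated best with its own number among the 3 of the other group. The sample names also run consecutively within each replicate number, and the labels do not say what this marks. Pairing is therefore neither shown nor excluded. With the replicate block 9, 9, 0, 0 and 0 of the 10 genes were called in the 5 contrasts, as without it. A floor of 3 counts per library in place of 3 over the group lowered the bounds, to at least 60.02-fold for Rsad2 in vehicle and at least 3.35-fold for Isg15 in ISRIB. A looser ISRE-like motif, without the last base, was in 8.56% of all promoter windows against 3.44%, and in 4 of the 8 genes like the stricter one. Counts over all tested genes moved by over 1.5 times with a minimum mean of 50 counts, to 530 of 836 in vehicle and 523 in ISRIB from 1055 and 1055. For ISRIB against vehicle in M0 the count went from 0 to 3 with the DESeq2 Wald test, 1 with limma-voom, 10 without the filter, and 6 and 2 without ISRIB M0 replicates 1 and 2. For the interaction it went from 0 to 3 with the replicate block, 9 without the filter, and 4 and 1 without those replicates, and for ISRIB in M1 from 0 to 1 without ISRIB M1 replicate 2.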
